A study of Mus musculus with 40 samples.

Results

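Transcript levels of Igfn1 and of 9 further genes whose proteins sit at the Z-disc of muscle fibers or respond there to strain were followed in extensor digitorum longus (EDL) muscle of TSCmKO mice. The genes were Igfn1, Ky, Flnc, Xirp1, Xirp2, Nrap, Ankrd1, Ankrd2, Csrp3 and Cryab, taken by their symbols from the deposited gene tables. They make up 10 of 22844 genes listed, and all 10 were among the 13543 genes tested. Igfn1 was chosen by its measured values, since it stood among the genes with the largest rise in 3-month TSCmKO muscle. Which values led to the other 9 genes is not recorded, so the comparison of 3mTSCmKO with 3mCON is given as a description, without a test. The 3mTSCmKO libraries also enter the comparisons of 3mTSCmKO+RM or 9mTSCmKO with 3mTSCmKO and the differences between effects that include them. For the 9 genes the adjusted p of such comparisons are those of the fit over all genes, may depend on the choice of the genes and are not independent support. The 9 genes were chosen with earlier results of these data known, so this may hold for every comparison of theirs.

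The EDL is a fast muscle of the lower hindlimb. In TSCmKO mice the gene Tsc1, whose product holds the kinase complex mTORC1 in check, was deleted in skeletal muscle fibers and kept in the other cells of the muscle. All mice carried floxed Tsc1 alleles on the strain labelled Tsc1tm1Djk/J, and control littermates (CON) carried no Cre, whose driver is not given in the sources used here. Muscles were taken at an age of 3 or 9 months, after 3 days of intraperitoneal injections of vehicle or of rapamycin (RM), which inhibits mTORC1. The labels give 4 mg per kg of rapamycin and the study text a higher daily dose, so the dose is uncertain. The 8 groups were 3mCON, 3mCON+RM, 3mTSCmKO, 3mTSCmKO+RM, 9mCON, 9mCON+RM, 9mTSCmKO and 9mTSCmKO+RM, with 5 mice and 1 mRNA library per mouse in each.

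The Z-disc anchors the actin filaments and the titin ends of neighbouring sarcomeres, and it is where the force of contraction and stretch is passed on. IGFN1 is a Z-disc protein found as a binding partner of KY, which also binds filamin C (Flnc), an actin crosslinker of the Z-disc and the fiber membrane. The Xin proteins (Xirp1 and Xirp2) bind actin and filamin C at myotendinous junctions and at damaged sarcomeres, and Nrap serves in myofibril assembly and at the junction with the tendon. Ankrd1 and Ankrd2 bind the spring region of titin and are known for rising after stretch, Csrp3 encodes the muscle LIM protein of the Z-disc, and Cryab encodes αB-crystallin, a small heat shock protein that protects desmin, titin and filamin C.

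The 300 bases around the annotated start of Igfn1, Ankrd1 and Ankrd2 are shown because these genes gave the widest differences between genotypes or, for Ankrd2, allow the Ankrd1 window to be set beside that of its relative. They run from 250 bases before to 50 bases after the start, 5′ to 3′ on the gene's strand, and come from RefSeq on GRCm38.p6. Such a window was available for 8 of the 10 genes, and Xirp1 and Cryab had none. Capitals mark matches on either strand to CATTCC (the MCAT element, read as GGAATG on the other strand), CAGCTG (an E-box) or TATAAA (the TATA box); no match to these overlapped another.
Igfn1, chr1:136006293-136006592, minus strand: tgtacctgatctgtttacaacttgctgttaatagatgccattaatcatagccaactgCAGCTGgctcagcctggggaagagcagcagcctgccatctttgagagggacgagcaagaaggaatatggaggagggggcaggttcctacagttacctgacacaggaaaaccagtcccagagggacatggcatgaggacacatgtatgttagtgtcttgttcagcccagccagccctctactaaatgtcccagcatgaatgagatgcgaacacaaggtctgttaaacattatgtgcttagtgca
Ankrd1, chr19:36119795-36120094, minus strand: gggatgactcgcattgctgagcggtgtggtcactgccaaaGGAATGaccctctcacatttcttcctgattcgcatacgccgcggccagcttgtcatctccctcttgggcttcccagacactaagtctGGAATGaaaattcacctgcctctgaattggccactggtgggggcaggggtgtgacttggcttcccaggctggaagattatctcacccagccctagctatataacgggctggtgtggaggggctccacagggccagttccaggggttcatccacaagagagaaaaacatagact
Ankrd2, chr19:42035777-42036076, plus strand: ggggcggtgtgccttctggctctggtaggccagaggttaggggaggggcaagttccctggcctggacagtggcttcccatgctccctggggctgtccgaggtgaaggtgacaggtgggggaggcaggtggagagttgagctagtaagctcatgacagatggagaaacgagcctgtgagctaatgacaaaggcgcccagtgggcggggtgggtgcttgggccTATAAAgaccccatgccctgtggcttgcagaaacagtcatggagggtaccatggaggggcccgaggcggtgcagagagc
The Igfn1 window held 1 E-box that began 193 bases before the start. The Ankrd1 window held 2 MCAT elements, at 210 and 123 bases before the start, and the Ankrd2 window held none but had a TATA box at 29 bases. CATTCC was present in 14.7% of all 32851 promoter windows of this length, CAGCTG in 16.3% and TATAAA in 13.6%, so these letters are common and their presence is a description only. Of the other members, Flnc had 1 MCAT element, which lies in both of its overlapping windows, Nrap had 1 E-box at 16 bases and Xirp2 had 1 MEF2 box at 74 bases before the start. The MEF2 box was present in 3.19% of all windows and the CArG box, which had no match in the members, in 1.63%.

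Total counts ran from 8883870 to 35224669 per library. Tsc1, the deleted gene, was at 26.0 to 43.8 TPM (a level scaled by transcript length and library total) in 3mCON and 9.24 to 11.3 TPM in 3mTSCmKO, and its log2 fold change between genotypes was -1.99 and -1.55 at 3 and 9 months without rapamycin and -1.90 and -1.97 with it (edgeR adjusted p at most 2.33e-09). Libraries were from whole muscle, in which cells other than fibers keep the gene. Markers of fast fibers led the tissue in every group, with summed levels of 196000 to 286800 TPM. Labelled insert sizes averaged 175 to 239 nt in the 3-month and 223 to 308 nt in the 9-month libraries, so age and library preparation cannot be told apart. In whole-muscle RNA, fewer cells of a type and less RNA per cell cannot be told apart either. 9mCON+RM replicate 3 stood apart from its group in 4 members, and the 9-month genotype differences after rapamycin of these members are given with and without it.

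At 9 months every member lay past the threshold between genotypes. These values may have entered the choice of the 9 genes other than Igfn1, so the counts and the median are descriptions. In the comparison of 9mTSCmKO with 9mCON, 8 members were higher (Igfn1, Flnc, Xirp1, Nrap, Ankrd1, Ankrd2, Csrp3 and Cryab) and 2 were lower (Ky and Xirp2), where 19.1% of all genes tested were called higher and 18.9% lower. For 6 members the libraries of both groups did not overlap (Igfn1, Ankrd1, Ankrd2, Csrp3 and Cryab higher, Ky lower), as for 14.6% of all genes tested. The median log2 fold change of the 10 genes was 1.08, against -0.02 over all genes. In 3mTSCmKO against 3mCON, the contrast in which Igfn1 was selected, 4 members lay past the threshold (Igfn1, Flnc and Nrap higher, Ky lower) beside 19.8% of all genes, and nothing is read from that count. Fold changes were tested with edgeR's quasi-likelihood test on counts with Benjamini-Hochberg adjustment over the 13543 genes and a threshold of 0.05. The members' values in each library are plotted by group.

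**Figure D1:**
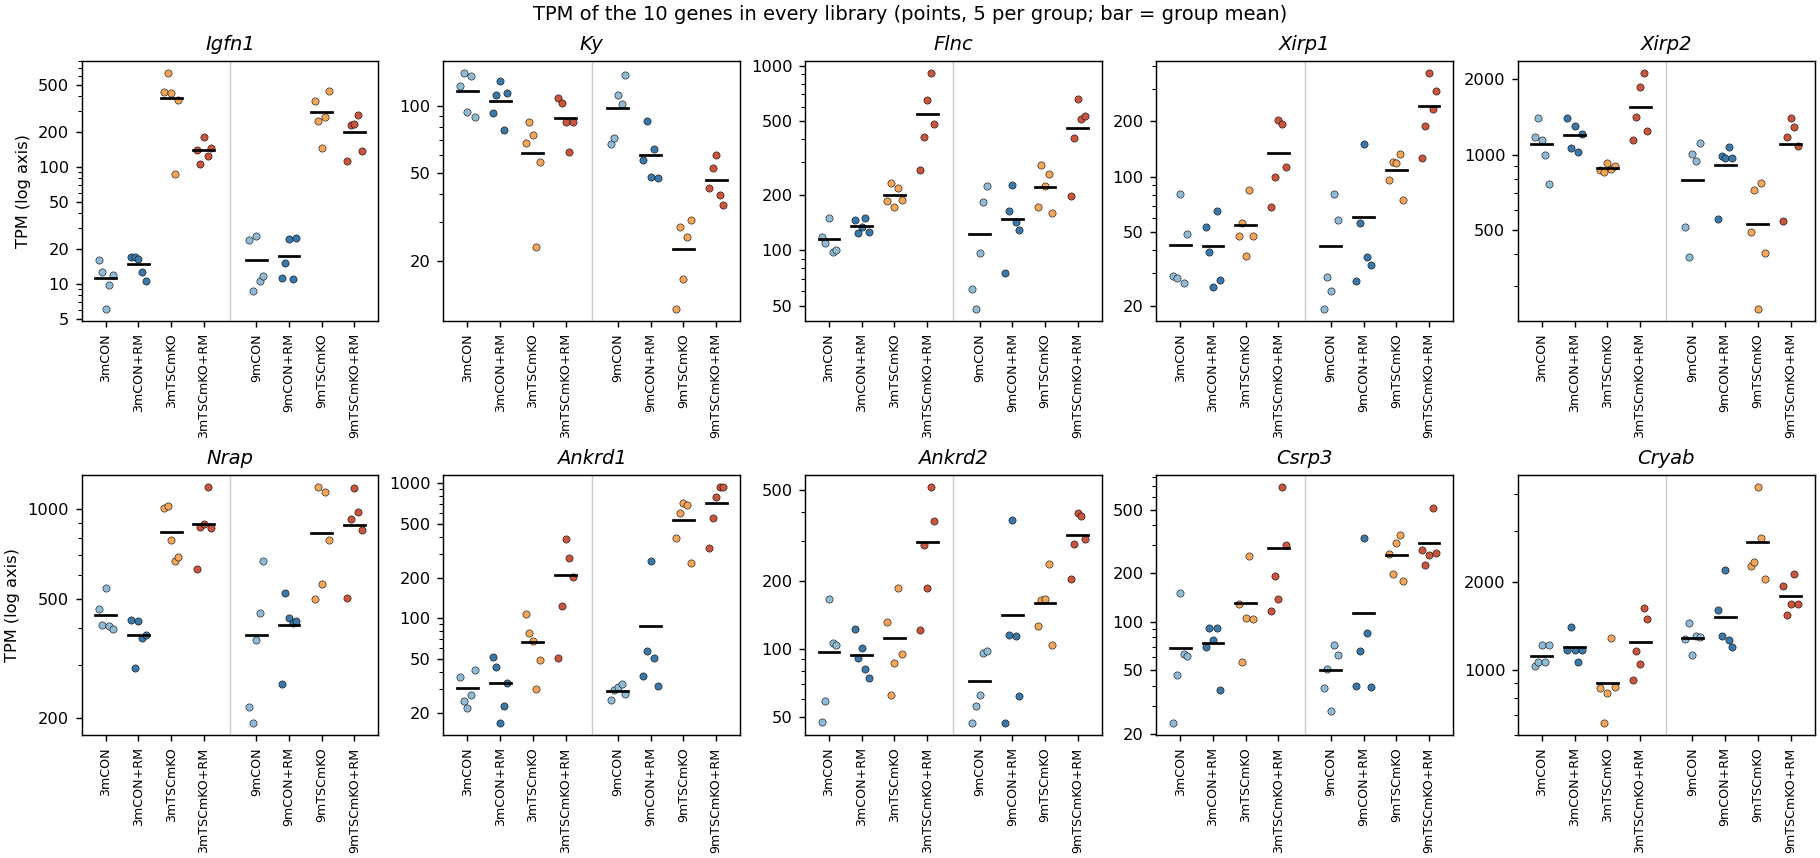
TPM (log axis) of the 10 genes in each of the 40 libraries, grouped by age, genotype and treatment; each point is 1 library and each bar the mean of the 5 libraries of a group. Igfn1 separates TSCmKO from CON libraries in all 4 pairs, Ky is lowest in 9mTSCmKO at 12.1 to 30.6 TPM, and Flnc and Xirp1 reach their highest means in TSCmKO muscle after rapamycin.

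Between the rapamycin-treated genotypes the higher members were largely those of the vehicle comparison, and Ky, Xirp2 and Cryab were not past the threshold. In 3mTSCmKO+RM against 3mCON+RM, libraries that did not enter the selection of Igfn1, 7 members were higher (Igfn1, Flnc, Xirp1, Nrap, Ankrd1, Ankrd2 and Csrp3) and 0 lower, where 5.67% of all genes were called higher and 4.36% lower. In 9mTSCmKO+RM against 9mCON+RM, 6 were higher (those 7 without Csrp3) and 0 lower, where 11.3% of all genes were called higher and 9.33% lower. The medians of the 10 log2 fold changes were 1.63 and 1.22, against -0.01 over all genes in each case. Whether these libraries entered the choice of the 9 genes other than Igfn1 is not recorded. Csrp3 was lost from the 3-month count without 3mTSCmKO+RM replicate 4 (log2 fold change 1.30, adjusted p = 0.117), its highest library.

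Within TSCmKO muscle, 5 members lay past the threshold and higher after rapamycin at each age, and the 3-month count shares the libraries of the selection. In 3mTSCmKO+RM against 3mTSCmKO these were Flnc, Xirp1, Xirp2, Ankrd1 and Ankrd2, where 10.6% of all genes were called higher, and Igfn1, not tested here, lay lower. Without 3mTSCmKO+RM replicate 4 the members past the threshold at 3 months, Igfn1 included, numbered 3 and not 6. In 9mTSCmKO+RM against 9mTSCmKO these were Ky, Flnc, Xirp1, Xirp2 and Ankrd2, where 15.8% were called higher, and Cryab was lower, where 16.8% were called lower. At 3 months the log2 fold change after rapamycin was 1.37 (adjusted p = 0.000286, SE 0.278) for Flnc. That of Igfn1 was -1.57 (SE 0.365), from which nothing is read because its high level in the 3mTSCmKO libraries chose the gene. In CON muscle at 3 months, 0 members passed the threshold after rapamycin (0 in edgeR and 0 in DESeq2) and 0 had an unadjusted p below 0.05, where 0.679% of all genes were called. At 9 months 1 member passed in CON muscle (Ankrd1), where 11.8% of all genes were called, and 4 had an unadjusted p below 0.05. The fitted differences of these comparisons are plotted with their intervals.

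**Figure D2:**
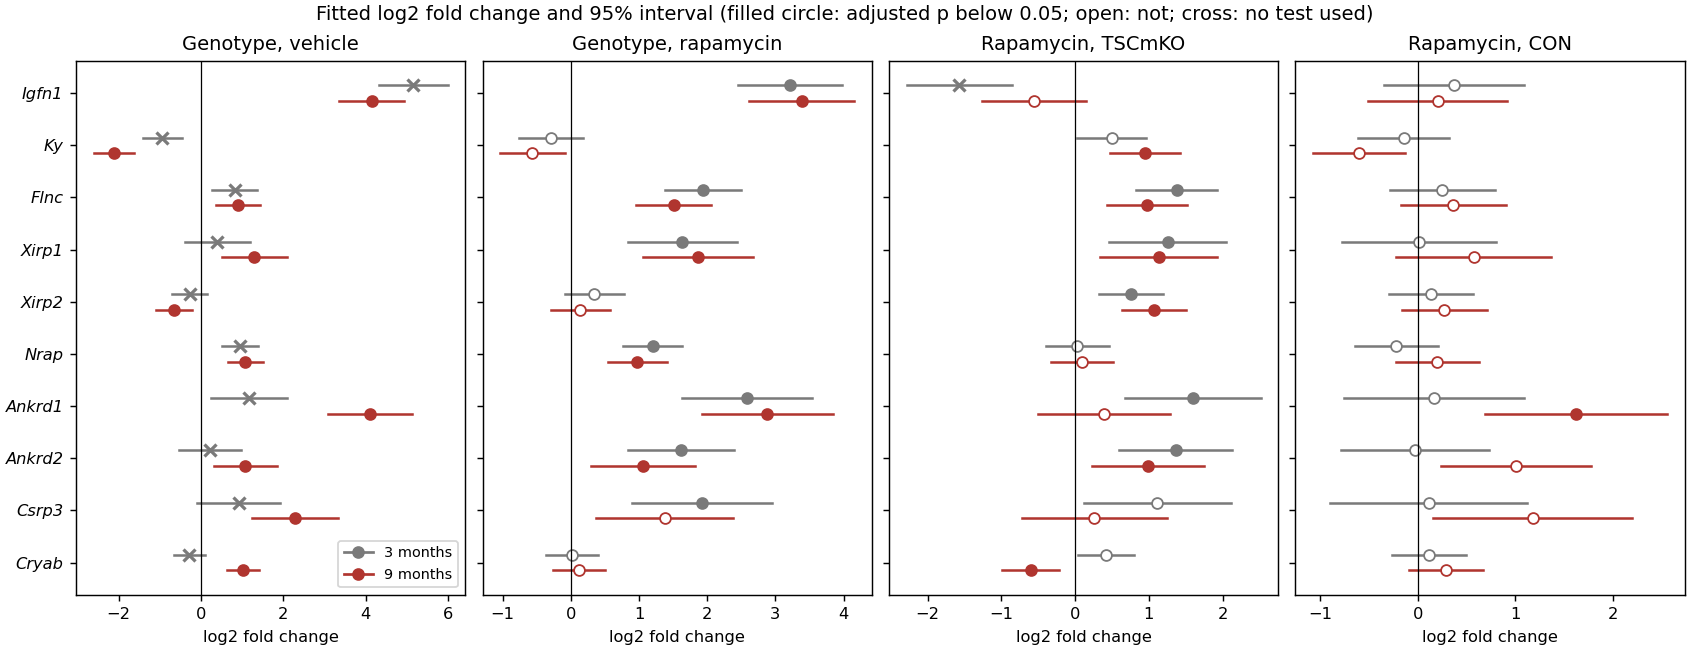
Fitted log2 fold change (horizontal axis) with its 95% interval for each gene in 8 comparisons, 3 months in grey and 9 months in red. Filled circles passed an adjusted p of 0.05 and open circles did not. Crosses mark all genes in 3mTSCmKO against 3mCON and Igfn1 in 3mTSCmKO+RM against 3mTSCmKO, which are not tested. Igfn1 lies at 3.22 or above in the genotype comparisons other than 3mTSCmKO against 3mCON, which chose it. Flnc, Xirp1 and Xirp2 lie to the right of 0 in TSCmKO muscle after rapamycin at both ages.

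Igfn1 (ENSMUSG00000051985, minus strand of chromosome 1, 135953578 to 136006342, GRCm38) separated the genotypes without overlap at 9 months without rapamycin and at both ages with it. Its TPM was 23.7, 8.62, 25.9, 10.7 and 11.8 in the 5 libraries of 9mCON and 367, 246, 145, 268 and 446 in 9mTSCmKO, a log2 fold change of 4.15 (adjusted p = 3.68e-10, SE 0.406). The lowest 9-month TSCmKO library was several times above the highest control. In the 3-month pair that chose the gene, TPM was 16.1, 12.6, 6.11, 9.86 and 11.9 in 3mCON and 434, 636, 425, 86.4 and 373 in 3mTSCmKO, with replicate 4 far below the other libraries of its group. By mean TPM the gene ranked 6763 among all genes listed in 3mCON and 320 in 3mTSCmKO.

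After rapamycin Igfn1 stayed above every control library. It was at 139, 107, 182, 125 and 145 TPM in 3mTSCmKO+RM against 17.2, 17.0, 16.5, 12.6 and 10.6 TPM in 3mCON+RM, a log2 fold change of 3.22 (adjusted p = 3.24e-07, SE 0.391). At 9 months it was at 113, 229.7, 232, 276 and 136 TPM in 9mTSCmKO+RM against 11.2, 15.2, 24.2, 11.0 and 24.6 TPM in 9mCON+RM (3.39, adjusted p = 4.27e-08, SE 0.393). These 2 comparisons share no library with the selection, and the fold changes stayed between 3.08 and 3.55 when any library of the compared groups was left out. The effect of rapamycin in 9-month TSCmKO muscle was -0.56 (adjusted p = 0.237, SE 0.357), with a 95% interval of -1.26 to 0.14, and the ranges of both groups overlapped. In CON muscle rapamycin gave 0.37 (adjusted p = 0.893, SE 0.365) at 3 months, interval -0.34 to 1.09, and 0.20 (adjusted p = 0.791, SE 0.362) at 9 months, interval -0.51 to 0.91.

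In the order of its group means, from 391 TPM in 3mTSCmKO over 294, 197 and 139 TPM in 9mTSCmKO, 9mTSCmKO+RM and 3mTSCmKO+RM to the 4 CON groups at 17.3, 16.1, 14.8 and 11.3 TPM, neighbouring groups overlapped at every step except that from 3mTSCmKO+RM to 9mCON+RM. The highest mean was thus 34.6 times the lowest. That ratio sets 3mTSCmKO against 3mCON, the pair that chose the gene, and nothing is read from it. The difference between the effects of rapamycin in TSCmKO and CON muscle at 3 months was -1.94 (SE 0.514), given without a test because it uses the 3mTSCmKO libraries, and at 9 months it was -0.76 (adjusted p = 0.419, SE 0.509).

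The 5 genes whose TMM-scaled log2(CPM + 1) values correlated best with those of Igfn1 over the 40 libraries, among 9629 genes with a mean of at least 5 CPM, were Gm26870 (Pearson r = 0.962), Sox12 (0.934), Hectd2os (0.934), Rasd2 (0.921) and B230312C02Rik (0.917). Sox12 encodes a transcription factor of the SoxC group and Rasd2 a small GTPase, and the others are listed as noncoding or predicted genes. Mean TPM of Rasd2 was 4.89 in 3mCON, 163 in 3mTSCmKO and 31.2 in 3mTSCmKO+RM. The transcript set behind the tables is uncertain for genes outside the protein-coding class, and with it the levels of Gm26870, Hectd2os and B230312C02Rik. The points share groups, and within groups the correlation with Igfn1 was 0.542 for Gm26870, 0.469 for Sox12, 0.359 for B230312C02Rik, 0.0019 for Hectd2os and -0.09 for Rasd2. The same 5 genes ranked highest on log2(TPM + 1), and 1 of them, Gm26870, stayed in the top 5 by Spearman's rho. The mean levels of these genes are plotted by group beside Igfn1.

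**Figure D3:**
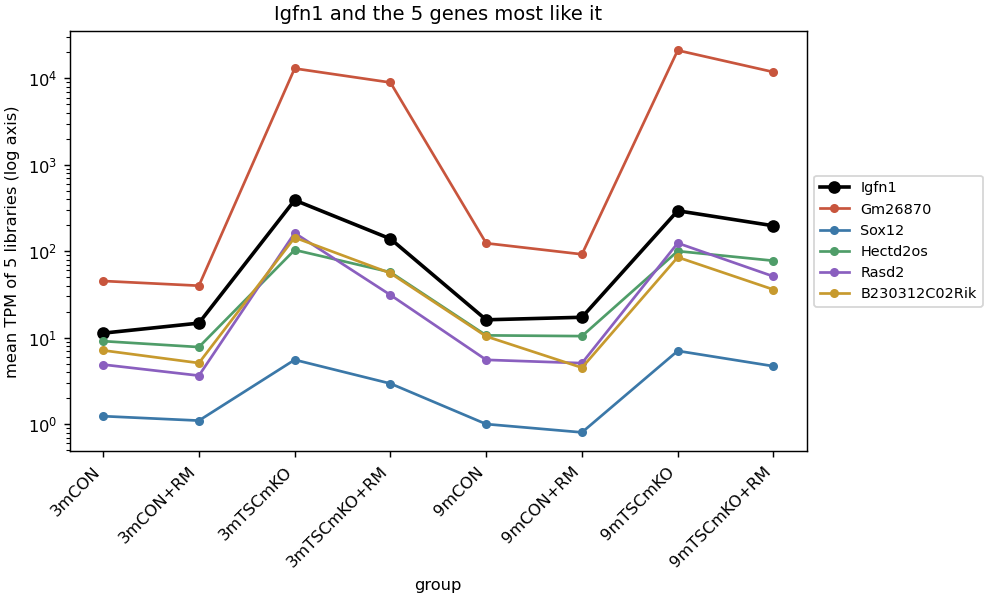
Mean TPM of 5 libraries (log axis) of Igfn1 and the 5 genes most correlated with it, by group. All 6 lines are high in the TSCmKO groups and low in the CON groups, and Igfn1 runs from 11.3 TPM in 3mCON to 391 TPM in 3mTSCmKO.

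The ratio of a gene's estimated count to its TPM gives, up to a factor for each library, the mean length of the transcripts to which its reads were assigned. With that factor taken from 377 genes of constant ratio, 85.7% of the values of 323 genes with 1 annotated transcript fell within 1% of the annotated length. For Igfn1, annotated with protein-coding transcripts of 3661 and 8989 nt, group means ran from 6235 to 6494 nt. Its 4 tested comparisons did not pass the threshold (exact permutation test, two-sided, adjusted p = 0.809 to 0.905). Among all 28 comparisons tested in the 5 members whose length varied, the lowest adjusted p was 0.222. It belonged to Ky in 9mTSCmKO+RM against 9mTSCmKO, at 4989 ± 99.9 and 5398 ± 237 nt (SD, n = 5), where the exact permutation p was 0.00794, the smallest that 5 libraries against 5 allow. After adjustment over 28 comparisons, 1 comparison alone at that smallest p cannot pass the threshold. The adjusted p therefore cannot decide whether lengths differed. For Ky the libraries did not overlap, at 4896 to 5100 nt in 9mTSCmKO+RM and 5203 to 5789 nt in 9mTSCmKO. Group means of Ky ran from 4586 to 5398 nt, below its 1 listed transcript of 5837 nt. Those of Flnc ran from 7547.5 to 8354 nt, below its transcripts of 8939 and 9038 nt. For these 2 genes the derived length therefore does not match the annotation used here, and the reason was not tested. TPM of Xirp1, Xirp2, Nrap, Ankrd1 and Ankrd2 rests on a constant length.

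Ky (ENSMUSG00000035606, plus strand of chromosome 9, 102505750 to 102546239), a transglutaminase-like protein without which muscles fail to grow under load and the spine becomes curved in mice, was lower in TSCmKO muscle, most of all at 9 months. Its TPM was 66.9, 71.7, 112, 102 and 138 in 9mCON and 12.1, 28.3, 16.6, 25.5 and 30.6 in 9mTSCmKO, with no overlap. The log2 fold change was -2.11 (adjusted p = 1.23e-08, SE 0.249). At 3 months it was at 122, 141, 94.2, 136 and 88.8 TPM in 3mCON and 67.8, 84.5, 73.6, 23.1 and 55.8 TPM in 3mTSCmKO, again without overlap (-0.94, SE 0.241), and 3mTSCmKO replicate 4, the lowest of the group for Igfn1, was also the lowest for Ky.

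The genotype difference of Ky was compared between ages. The difference between the genotype effects at 9 and 3 months was -1.18 (SE 0.340) on the log2 scale, and -1.08 with insert size as a term. It contains the contrast of 3mTSCmKO with 3mCON and is given as a description, as are those of Ankrd1 and Cryab. In CON muscle Ky did not pass the threshold between 3 and 9 months (-0.08, adjusted p = 0.901, SE 0.239). Within TSCmKO muscle it was lower at 9 months (-1.26, adjusted p = 0.000133, SE 0.244) and no longer past the threshold with insert size as a term (-0.83, adjusted p = 0.081).

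Rapamycin raised Ky in 9-month TSCmKO muscle, to 42.8, 52.4, 60.0, 39.6 and 35.6 TPM, so that every treated library lay above every vehicle library (0.95, adjusted p = 0.00258, SE 0.242). In 9mCON+RM its TPM was 56.8, 85.6, 47.9, 64.1 and 47.1, a log2 fold change from 9mCON of -0.60 (adjusted p = 0.101, SE 0.240). The difference between these 2 effects was 1.55 (adjusted p = 0.00556, SE 0.341) and passed the threshold in every alternative and without any library. Ky was the 1 member called in this interaction, where 4.87% of all genes were called. Genotype differences after rapamycin were -0.30 (adjusted p = 0.546, SE 0.239) at 3 months and -0.56 (adjusted p = 0.0947, SE 0.240) at 9 months, with 95% intervals of -0.77 to 0.17 and -1.03 to -0.09. The 9-month difference passed the threshold in the fit of the 2 groups alone (adjusted p = 0.043).

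Flnc (ENSMUSG00000068699, plus strand of chromosome 6, 29433256 to 29461883) was higher in TSCmKO muscle and higher again after rapamycin. In 3mTSCmKO it was at 186, 232, 173, 216 and 186 TPM and in 3mTSCmKO+RM at 271, 410.3, 657, 916 and 486 TPM, and the groups did not overlap. In 3mCON+RM it was at 146, 124, 134, 150.4 and 125 TPM, below every TSCmKO library of that treatment (1.94, adjusted p = 6.1e-06, SE 0.283). The difference between the rapamycin effects in both genotypes at 3 months was 1.12 (adjusted p = 0.112, SE 0.388) and passed the threshold in the fit of the 4 groups alone (adjusted p = 0.023) and without 3mTSCmKO+RM replicate 1 (adjusted p = 0.044).

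At 9 months the control libraries spread widely. Flnc was at 61.8, 48.0, 96.6, 182 and 223 TPM in 9mCON and 171, 291, 224, 258 and 159 TPM in 9mTSCmKO, and the groups overlapped because 9mCON replicates 4 and 5 were high. Replicates 1 and 2 of 9mCON were low, as for several other genes. The difference was 0.89 (adjusted p = 0.00982, SE 0.276), and it was not past the threshold in the fit of the 2 groups alone (adjusted p = 0.055). With rapamycin it was at 74.8, 163, 226, 142 and 129 TPM in 9mCON+RM and 197, 407, 659, 512 and 532 TPM in 9mTSCmKO+RM (1.51, adjusted p = 8.81e-05, SE 0.279). The rise from 9mTSCmKO to 9mTSCmKO+RM was 0.98 (adjusted p = 0.00611, SE 0.276).

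Xirp1 (ENSMUSG00000079243, minus strand of chromosome 9, 120013755 to 120023598), the shorter of the Xin genes, was higher in TSCmKO muscle at 9 months and highest after rapamycin. Its TPM was 19.3, 28.8, 24.0, 80.5 and 58.2 in 9mCON and 96.4, 121, 118, 132 and 75.4 in 9mTSCmKO. With rapamycin it was 127, 188, 366, 233 and 293 in TSCmKO muscle of that age. The groups overlapped at each step, with 4 of 5 libraries of 9mTSCmKO above all of 9mCON (1.30, adjusted p = 0.0114, SE 0.407). The rise after rapamycin was 1.13 (adjusted p = 0.0295, SE 0.405) at 9 months and 1.25 (adjusted p = 0.0220, SE 0.406) at 3 months. These 2 calls were near the threshold. The 9-month one was lost without 9mTSCmKO replicate 1 or 5 or 9mTSCmKO+RM replicate 3 or 5 (adjusted p = 0.060 to 0.081) and with insert size as a term (adjusted p = 0.053). The 3-month one was lost without 3mTSCmKO replicate 3 or 3mTSCmKO+RM replicate 3 or 4 (adjusted p = 0.058 to 0.069). The genotype differences after rapamycin were 1.64 (adjusted p = 0.00691, SE 0.411) at 3 months, without overlap, and 1.86 (adjusted p = 0.000988, SE 0.413) at 9 months. Without 9mCON+RM replicate 3, the highest control library at 151 TPM, the 9-month value was 2.50 (adjusted p = 1.54e-05).

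Xirp2 (ENSMUSG00000027022, plus strand of chromosome 2, 67446002 to 67526614) was the more abundant Xin gene in every group and lower in 9mTSCmKO than in 9mCON. It was at 516, 391, 1007, 942 and 1114 TPM in 9mCON and 491, 725, 243, 771 and 407 TPM in 9mTSCmKO, and its ranges overlapped. Its fall of -0.66 (adjusted p = 0.0176, SE 0.222) was lost in the fit of the 2 groups alone (adjusted p = 0.142) and without 9mCON replicate 3, 4 or 5 or 9mTSCmKO replicate 3 (adjusted p = 0.052 to 0.080). Rapamycin brought it to 544, 1177, 1398, 1292 and 1083 TPM in 9mTSCmKO+RM, a rise of 1.07 (adjusted p = 0.000303, SE 0.223). At 3 months it went from 865, 853, 927, 879 and 899.6 TPM in 3mTSCmKO to 1144, 1412, 1855, 2117 and 1236 TPM in 3mTSCmKO+RM, without overlap (0.75, adjusted p = 0.0105, SE 0.222), and the adjusted p was 0.0501 without 3mTSCmKO+RM replicate 4. Between rapamycin-treated genotypes it did not pass the threshold, with 95% intervals of -0.09 to 0.77 at 3 months and -0.29 to 0.57 at 9 months.

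Nrap (ENSMUSG00000049134, minus strand of chromosome 19, 56320035 to 56390037) was higher in TSCmKO muscle, with and without rapamycin. Mean levels were 444 ± 63.0 and 837 ± 171 TPM (SD, n = 5) in 3mCON and 3mTSCmKO, and 379 ± 195 and 835 ± 317 TPM in 9mCON and 9mTSCmKO. The log2 fold changes between genotypes were 1.08 (adjusted p = 0.000146, SE 0.219) at 9 months, 1.20 (adjusted p = 0.000202, SE 0.220) at 3 months with rapamycin and 0.98 (adjusted p = 0.00094, SE 0.219) at 9 months with rapamycin. The 3-month pairs did not overlap, while at 9 months 9mCON replicate 5 at 672 TPM lay among the TSCmKO libraries. The effect of rapamycin in TSCmKO muscle was 0.03 (adjusted p = 0.944, SE 0.216) at 3 months and 0.09 (adjusted p = 0.770, SE 0.216) at 9 months, with 95% intervals of -0.39 to 0.45 and -0.33 to 0.52.

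Ankrd1 (ENSMUSG00000024803, minus strand of chromosome 19, 36111961 to 36120099) showed the steepest rise with age in TSCmKO muscle among the 10 genes. In 9mCON it was narrow, at 24.7, 29.6, 30.8, 32.5 and 27.7 TPM, and in 9mTSCmKO it was at 391, 597, 710.4, 692 and 255 TPM. The lowest TSCmKO library was thus well above the highest control, with a log2 fold change of 4.10 (adjusted p = 1.09e-07, SE 0.521). At 3 months it was at 36.8, 24.6, 21.9, 27.0 and 41.2 TPM in 3mCON and 108, 77.4, 67.9, 30.0 and 49.4 TPM in 3mTSCmKO, with overlap (1.16, SE 0.471). The difference between the genotype effects at 9 and 3 months was 2.94 (SE 0.669), a description as for Ky. Within TSCmKO muscle the rise from 3 to 9 months was 2.98 (adjusted p = 2.29e-05, SE 0.493), against 0.04 (adjusted p = 0.980, SE 0.470) in CON muscle. The TSCmKO value stayed past the threshold in all 7 alternatives, insert size as a term among them (adjusted p at most 0.0035).

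Ankrd1 also rose after rapamycin at 3 months. Levels in 3mTSCmKO+RM were 51.3, 123, 388, 279.7 and 201 TPM, a log2 fold change from 3mTSCmKO of 1.59 (adjusted p = 0.0116, SE 0.469). The range was wide, replicate 1 lay inside the vehicle range, and the call was lost without replicate 3 (1.25, adjusted p = 0.056) and in the fit of the 2 groups alone (adjusted p = 0.054). At 9 months 9mTSCmKO+RM was at 328, 548, 793, 934 and 927 TPM, a difference from 9mTSCmKO of 0.40 (adjusted p = 0.535, SE 0.456) with an interval of -0.50 to 1.29. Whether the effect of rapamycin differed between ages was not tested. In 9mCON+RM the TPM was 37.2, 57.1, 265, 50.8 and 31.7, and its call against 9mCON (1.62, adjusted p = 0.0222, SE 0.476) rested on replicate 3: without that library the value was 0.67 (adjusted p = 0.302). It was also lost without 9mCON replicate 1 (1.55, adjusted p = 0.059), with the replicate number as a block (adjusted p = 0.054) and in the fit of the 2 groups alone (adjusted p = 0.110). The genotype difference after rapamycin was 2.88 (adjusted p = 3.48e-05, SE 0.490) at 9 months, 3.83 without that replicate 3 and without overlap in either case, and 2.59 (adjusted p = 0.000392, SE 0.489) at 3 months.

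Ankrd2 (ENSMUSG00000025172, plus strand of chromosome 19, 42036000 to 42045110), which slow fibers express more than fast ones, was higher in 9mTSCmKO than in 9mCON. It was at 47.1, 56.1, 62.3, 95.9 and 97.7 TPM in 9mCON, 126, 164, 166, 237 and 104 TPM in 9mTSCmKO and 204, 289, 398, 385 and 306 TPM in 9mTSCmKO+RM. The vehicle groups did not overlap, but the call (1.08, adjusted p = 0.0283, SE 0.392) was lost without 9mCON replicate 1 or 3 or 9mTSCmKO replicate 3 or 4 (adjusted p = 0.053 to 0.081) and with no filter on low counts (adjusted p = 0.053). After rapamycin the genotype difference was 1.62 (adjusted p = 0.00566, SE 0.395) at 3 months. The 9-month values of 1.06 (adjusted p = 0.0489, SE 0.389) between genotypes and 0.99 (adjusted p = 0.0483, SE 0.388) for rapamycin in TSCmKO muscle stood at the threshold, and each was lost when any of 8 of the 10 libraries was left out (adjusted p up to 0.136 and 0.116). Without 9mCON+RM replicate 3, at 370.4 TPM against at most 115 TPM in the other libraries of its group, the difference between genotypes was instead 1.78 (adjusted p = 0.00028). The difference of 9mCON+RM from 9mCON was 1.01 (adjusted p = 0.0932, SE 0.392), and 0.29 without that library (adjusted p = 0.649). For rapamycin at 3 months the rise was 1.36 (adjusted p = 0.00958, SE 0.391), with an adjusted p of 0.052 without 3mTSCmKO+RM replicate 4.

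Csrp3 (ENSMUSG00000030470, minus strand of chromosome 7, 48830398 to 48848033) was also a gene of wide spread. It was at 38.6, 50.8, 27.8, 71.7 and 61.9 TPM in 9mCON and 264, 197, 308, 349 and 179 TPM in 9mTSCmKO, with no overlap (2.29, adjusted p = 0.000921, SE 0.532). In 9mCON+RM it was at 39.7, 65.9, 335, 84.5 and 39.2 TPM, and in 9mTSCmKO+RM at 281, 226, 259.7, 514 and 267 TPM. At 9 months every CON library except 9mCON+RM replicate 3 lay below every TSCmKO library. The genotype difference after rapamycin of 1.38 (adjusted p = 0.0538, SE 0.514) became 2.31 without that library (adjusted p = 0.00066). With all libraries kept it passed with DESeq2 (adjusted p = 0.031) and with the replicate number as a block (adjusted p = 0.016). The 3-month rapamycin pair gave 1.92 (adjusted p = 0.0142, SE 0.524), where 1 library, 3mTSCmKO+RM replicate 4 at 692 TPM, carried the call.

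Markers of slow fibers moved with genotype at 9 months, as Ankrd2 and Csrp3 did. Counts of called markers are to be read beside the shares of all genes tested. These were 19.1% higher and 18.9% lower in 9mTSCmKO against 9mCON, and 15.8% and 16.8% after rapamycin in 9-month TSCmKO muscle. The summed TPM of 9 such markers, Myh7 among them, was 292 to 365 in 9mCON and 1887 to 4667 in 9mTSCmKO, with 1118 to 2002 in rapamycin-treated TSCmKO muscle of that age, and 9 of the 9 were higher in 9mTSCmKO than in 9mCON. Mean Myh7, the slow myosin heavy chain, was at 10.8 TPM in 9mCON and 79.5 TPM in 9mTSCmKO. Fast-fiber markers summed to 248600 to 286800 TPM in 9mCON and 196000 to 217200 TPM in 9mTSCmKO, with 6 of 13 lower and 0 higher. 9mCON+RM replicate 3 had a slow-marker sum of 788 TPM against 238 to 318 TPM in the other libraries of its group. Over the 40 libraries, as deviations from group means, the slow-marker sum correlated with Ankrd2 at r = 0.655, with Csrp3 at 0.643, with Xirp1 at 0.408, with Igfn1 at -0.43 and with Ky at -0.455. These values include 9mCON+RM replicate 3 and were not computed without it. After rapamycin in 9-month TSCmKO muscle, where Ky was higher, 3 of the 9 slow-fiber markers were lower and 0 higher, and 6 of 13 fast-fiber markers were higher and 1 lower. Of the 4 tested markers of regenerating fibers 2 were higher and 0 lower there, and Myog, a transcription factor of muscle differentiation, had a mean of 3.9 TPM in 9mTSCmKO and 9.75 TPM in 9mTSCmKO+RM. Means of the fusion genes Mymk and Mymx went the other way, from 2.26 to 0.376 TPM and from 0.65 to 0.238 TPM, as did that of Actc1, from 417 to 274 TPM. The part of fiber types and of regenerating fibers in these results was not tested.

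Markers of heart muscle, where Ankrd1, Csrp3 and Xirp2 are also abundant, gave a summed TPM of 5.88 to 35.5 over all libraries for the 6 listed. Group means of Myh6, a heart myosin heavy chain gene, ran from 9.37 to 15.7 TPM, and Nppa, with a mean of 0 in 9mCON, reached a mean of 3.19 TPM in 9mTSCmKO. Of the 4 that could be tested, 3 were higher in 9mTSCmKO than in 9mCON. As deviations from group means, the heart-marker sum correlated with Xirp2 at r = 0.618, with Flnc at 0.595 and with Nrap at 0.58. Tendon markers, of interest because Xirp2 and Nrap sit at the myotendinous junction, summed to 23.0 to 54.6 TPM in 9mCON+RM against 60.0 to 391 TPM in 9mCON, with 6 of 7 lower. They summed to 43.6 to 90.9 TPM in 9mTSCmKO, with 5 of 7 lower than in 9mCON. Macrophage markers summed to 13.4 to 179 TPM over all libraries, with 1 of 7 higher in 9mTSCmKO than in 9mCON and 6 of 7 lower in 9mCON+RM than in 9mCON. Of the 5 markers of adipocytes 2 were lower in 9mTSCmKO than in 9mCON, and of the 5 of fibro-adipogenic cells 4 were lower. The shares of all genes called were 19.1% higher and 18.9% lower in 9mTSCmKO against 9mCON, and 11.8% in either direction in 9mCON+RM against 9mCON. Nothing is read from counts near these shares. Within groups the adipocyte sum correlated with Ky at -0.722 and with Nrap at -0.658. The part of these cells in the members' differences was not tested.

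Cryab (ENSMUSG00000032060, plus strand of chromosome 9, 50751325 to 50756636) was the most abundant member at 9 months. It was at 1274, 1455, 1123, 1306 and 1297 TPM in 9mCON and 2273, 2337, 4242, 2845 and 2056 TPM in 9mTSCmKO, without overlap (1.01, adjusted p = 8.04e-05, SE 0.197). At 3 months it was at 1032, 1061, 1218, 1066 and 1216 TPM in 3mCON and 866, 658, 835, 1292 and 876 TPM in 3mTSCmKO, where 4 of 5 TSCmKO libraries lay below every control (-0.28, SE 0.195). The difference between the genotype effects was 1.29 (SE 0.277). In this interaction 3 members lay past the threshold (Ankrd1, Cryab and Ky), where 4.94% of all genes were called, and nothing is read from that count. Without any 1 of the 20 libraries Ankrd1 and Cryab stayed in it, whereas Ky dropped out in 11 of the 20 cases, with no filter on low counts, with insert size as a term and in the fit of the 4 groups alone.

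Rapamycin lowered Cryab in 9-month TSCmKO muscle, to 1939.9, 1543, 1689.8, 2128 and 1682 TPM (-0.60, adjusted p = 0.0159, SE 0.196). The groups overlapped, and the call rested on 9mTSCmKO replicate 3, the highest library at 4242 TPM: without it the value was -0.34 (adjusted p = 0.148). It was also lost in the fit of the 2 groups alone (adjusted p = 0.072). Between rapamycin-treated genotypes Cryab differed by 0.02 (adjusted p = 0.974, SE 0.195) at 3 months and 0.12 (adjusted p = 0.732, SE 0.195) at 9 months, with intervals of -0.36 to 0.41 and -0.26 to 0.50. The difference between the rapamycin effects at 9 months was -0.89 (adjusted p = 0.0503, SE 0.276), just outside the threshold. It passed with DESeq2's size factors (adjusted p = 0.049), with DESeq2 itself (adjusted p = 0.026) and without any of 8 of the 20 libraries.

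No member passed the threshold with age in CON muscle. In 9mCON against 3mCON, 0 members passed edgeR's threshold, 0 had an unadjusted p below 0.05 and 0 passed in DESeq2, where 1.02% of all genes were called. The widest interval was that of Csrp3, from -1.37 to 0.66. In 9mTSCmKO against 3mTSCmKO, 4 members passed (Ankrd1 and Cryab higher, Ky and Xirp2 lower; 2 with insert size as a term), where 37.4% of all genes were called. Xirp2 in that comparison was -0.80 (adjusted p = 0.00468, SE 0.222) and without overlap, and -0.77 with insert size as a term (adjusted p = 0.102). In the rapamycin by genotype interaction at 3 months 1 member, Igfn1, lay past the threshold, where 3.45% of all genes were called, and nothing is read from it since the 3mTSCmKO libraries chose the gene.

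Some members varied together among libraries of the same group. As deviations from group means over the 40 libraries, Ankrd2 and Csrp3 correlated most (Pearson r = 0.883), followed by Flnc with Xirp1 (0.779), Flnc with Nrap (0.767) and Xirp2 with Nrap (0.737). Without 9mCON+RM replicate 3 these values were 0.849, 0.767, 0.789 and 0.737. Igfn1 correlated with Ky at 0.398, although over all libraries that value was -0.62, and with Csrp3 at -0.40 and Cryab at -0.44. Ankrd1 and Ankrd2, which share their titin-binding site, correlated at 0.486, or 0.323 without that library. The points share the scaling of each library and no test was made. The full set of these values is plotted.

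**Figure D4:**
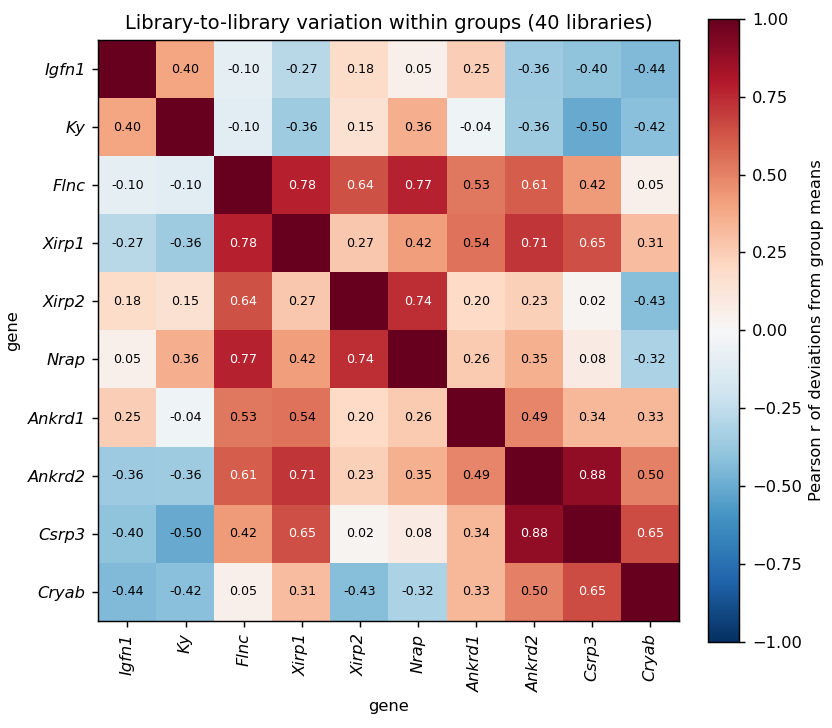
Pearson r between each pair of the 10 genes over 40 libraries, computed on deviations from the group means of log2(CPM + 1), on a scale from -1 (blue) to 1 (red). Ankrd2 and Csrp3 form the strongest pair at 0.88, Flnc, Xirp1 and Nrap are linked at 0.42 to 0.78, and Igfn1 and Ky are negative with Ankrd2, Csrp3 and Cryab.

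Other genes of the same structures and pathways were read from lists written for this work. Their counts are to be read beside the shares of all genes called, which were 19.1% higher and 18.9% lower in 9mTSCmKO against 9mCON and 15.8% and 16.8% after rapamycin in 9-month TSCmKO muscle. The genes named were those with the largest change in 9mTSCmKO against 9mCON, and the comparison after rapamycin uses the same 9mTSCmKO libraries, so nothing is read from opposite signs in both. Of 19 genes for filamin C and chaperone-assisted turnover, 9 were higher and 4 lower in 9mTSCmKO than in 9mCON (median log2 fold change 0.37). Hspb7, a small heat shock protein that binds filamin C, rose from 227 ± 68.5 to 2321 ± 477 TPM (SD, n = 5), a log2 fold change of 3.29 (adjusted p = 3.37e-12, SE 0.275). Bag3, the co-chaperone that sends damaged filamin C to autophagy, rose by 1.43 (adjusted p = 9.24e-12, SE 0.126), Hspb1 by 1.99 (adjusted p = 2.79e-08, SE 0.245) and the autophagy receptor gene Sqstm1 by 1.56 (adjusted p = 4.87e-12, SE 0.133). After rapamycin in 9-month TSCmKO muscle 2 of the 19 were higher and 6 lower, among them Bag3 (-0.42, adjusted p = 0.00759, SE 0.123) and Sqstm1 (-1.06, adjusted p = 8.31e-08, SE 0.132). Hspb7 (-0.62, adjusted p = 0.0547, SE 0.252) and Hspb1 (-0.14, adjusted p = 0.685, SE 0.235) did not pass. Flnc rose in the same comparison, as given above. After rapamycin, 4 of the 19 were higher and 0 lower in 3mTSCmKO+RM than in 3mCON+RM, where 5.67% of all genes were called higher and 4.36% lower, and 7 were higher and 2 lower at 9 months, where the shares were 11.3% and 9.33%.

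Of 30 sarcomeric Z-disc genes, 8 were higher and 8 lower in 9mTSCmKO than in 9mCON (median 0.06). Myoz2, the calsarcin of slow fibers, rose from 69.8 ± 15.5 to 277 ± 53.0 TPM (1.91, adjusted p = 1.34e-08, SE 0.227), and the LIM protein genes Fhl1 (1.14, adjusted p = 0.000466, SE 0.253) and Lmcd1 (1.14, adjusted p = 5e-05, SE 0.213) rose as well. Neb, which encodes the thin-filament ruler nebulin, fell (-1.57, adjusted p = 0.000633, SE 0.356). After rapamycin in 9-month TSCmKO muscle 12 were higher and 5 lower, Neb (1.88, adjusted p = 0.000111, SE 0.359) and Lmcd1 (0.58, adjusted p = 0.0322, SE 0.210) among the higher. After rapamycin in 9-month CON muscle 8 of the 30 were higher and 1 lower, where 11.8% of all genes were called in either direction.

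Of 18 genes of titin, obscurin and the M-band, 2 were higher and 8 lower in 9mTSCmKO than in 9mCON (median -0.21), and 10 were higher and 3 lower after rapamycin in 9-month TSCmKO muscle. In CON muscle of that age 3 were higher and 1 lower after rapamycin, where 11.8% of all genes were called in either direction. Mybph, a myosin-binding protein gene, was at -1.88 (adjusted p = 0.0157, SE 0.616) by genotype and 2.02 (adjusted p = 0.0119, SE 0.618) after rapamycin, and its fast-fiber relative Mybpc2 at -1.31 (adjusted p = 9.14e-08, SE 0.172) and 1.60 (adjusted p = 5.15e-09, SE 0.173). Ttn, which encodes titin, the partner of Ankrd1 and Ankrd2, fell by genotype (-0.89, adjusted p = 0.0183, SE 0.301). Myom3, an M-band gene of slower fibers, rose at 9 months (0.995, adjusted p = 0.00542, SE 0.283) but lay below 3mCON in 3mTSCmKO (-1.50, SE 0.293). The difference between both effects was 2.50 (SE 0.407). Those 2 values are descriptions, and the 9-month change that named the gene is part of that difference.

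Among 19 genes of the costamere and the myotendinous junction, 3 were higher and 7 lower in 9mTSCmKO than in 9mCON (median -0.12). The myotendinous collagen gene Col22a1 (1.09, adjusted p = 0.00590, SE 0.314) and Lims1 (0.67, adjusted p = 0.00115, SE 0.163), which encodes a LIM protein of integrin complexes, rose, whereas Tln2 (-0.71, adjusted p = 0.00877, SE 0.217), a talin gene, and Sgca (-0.68, adjusted p = 0.000156, SE 0.139), which encodes α-sarcoglycan, fell. Between the rapamycin-treated genotypes at 9 months, 3 of the 19 were higher and 0 lower, beside 11.3% and 9.33% of all genes.

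The YAP, TEAD and SRF pathway, for which Ankrd1 is a known target gene, was covered by 21 genes in 22 table entries, Lats2 having 2. There 3 entries were higher and 7 lower in 9mTSCmKO than in 9mCON (median -0.26). The TEAD cofactor gene Vgll2 rose (0.95, adjusted p = 0.00012, SE 0.190), and Vgll3 (-1.21, adjusted p = 0.00032, SE 0.260), the SRF cofactor gene Mkl1 (-0.96, adjusted p = 0.000149, SE 0.194) and an entry of the YAP kinase gene Lats2 (-0.61, adjusted p = 0.00842, SE 0.186) fell.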

How the data were processed

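EDL muscle mRNA of 40 mice in 8 groups was sequenced, with 1 library per mouse. The authors trimmed adapters with Cutadapt 1.9.1 and assigned single-end reads with kallisto 0.43.1 to GRCm38 transcripts per the labels and the study's methods, shared reads with several hits equally and summed them per gene. The deposited estimated counts were whole numbers, so rounding changed nothing, and the deposited TPM were derived from them by the authors. Counts were fitted with edgeR 4.0.16 in R 4.3.3 (genes with at least 1 CPM in 5 libraries, TMM scaling, group means of all 40 libraries, robust quasi-likelihood F-tests, two-sided, Benjamini-Hochberg, threshold 0.05), tested on simulated data first. TPM are levels, and fold changes come from the count fit. DESeq2 1.42.0 and other scalings, filters, terms, blocks and left-out libraries were alternatives. Intervals are 95%.

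Members and gene lists were chosen with earlier results of these data known. Named were the 10 members, Tsc1, up to 4 genes per list with the largest change in 9mTSCmKO against 9mCON among those called, and the 5 genes most correlated with Igfn1. Sequences of 31 bases in the members' GENCODE M21 transcripts were shared with other genes in 0% of cases. Some genes of the lists were not analysed here.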

Additional observations from a re-analysis of the deposited data

Results flagged for a closer look

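Library 3 of 9mCON+RM was far above the other 4 libraries of its group for 4 genes: Xirp1 at 151 TPM (next highest 56.2), Ankrd1 at 265 TPM (57.1), Ankrd2 at 370.4 TPM (115) and Csrp3 at 335 TPM (84.6). Library 1 of that group was far below the others for Xirp2, at 553 TPM against 968 TPM for the next lowest, and library 4 of 9mTSCmKO+RM was far above the others for Csrp3, at 514 TPM against 281 TPM. These are 6 of 80 groups examined, by the gap to the nearest library as a share of the group's range (Dixon's criterion for 5 values), and chance alone sets off about 1 group in 20.

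The effect of rapamycin on Ky differed between genotypes at 9 months by an interaction term (1.55 on the log2 scale). Interaction values for genotype by age of Ankrd1 (2.94), Cryab (1.29) and Ky (-1.18), and for rapamycin by genotype of Igfn1 at 3 months (-1.94), were also set apart by the fit, but they contain the 3mTSCmKO libraries that selected Igfn1 and are descriptions from which nothing is read. With insert size as a term the first 3 of these were 2.98, 1.27 and -1.08.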

How the results depend on the processing

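Of 420 member log2 fold changes recomputed under other scalings, no filter on low counts, DESeq2, the compared groups alone, an insert-size term or a replicate block, 387 kept their side of the threshold, 22 dropped out and 11 came in, and 0 of those past the threshold in any setting changed sign. The counts of members that moved by over 1.5 times were those of rapamycin in 9-month CON muscle (1, and 0 with the compared groups alone), rapamycin by genotype at 9 months (1, and 2 with DESeq2 or its size factors), rapamycin by genotype at 3 months (1, with 0 without the filter and 2 with the compared groups alone) and age in TSCmKO muscle (4, and 2 with insert size as a term, which drops 1 library). The cause was not tested. Leaving out 1 library at a time gave 3 to 8 members for rapamycin in 3-month TSCmKO muscle, 0 to 2 for rapamycin in 9-month CON muscle, 1 to 2 for rapamycin by genotype at 9 months and 0 to 2 at 3 months; the remaining counts moved by at most 1.5 times. Libraries share replicate numbers across groups, but the numbers do not pair them: deviations of same-numbered libraries had a median r of 0.0012, 34 of 140 pairs exceeded 0.1, and 4 of 40 libraries correlated best with their own number. The replicate block changed 3 calls, taking Ankrd1 out of rapamycin in 9-month CON muscle (0 members left) and adding Csrp3 between rapamycin-treated genotypes at 9 months and Xirp1 for age in TSCmKO muscle. With 5 libraries per group, differences smaller than the printed intervals could not be resolved.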
